A study of Rattus norvegicus with 8 samples.

Results

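Voltage-gated calcium channel subunits are described here in single nuclei from the vagal sensory ganglia of rats: the pore-forming subunits Cacna1a, Cacna1b, Cacna1c, Cacna1d, Cacna1e and Cacna1h and the auxiliary subunits Cacna2d1, Cacna2d2 and Cacna2d3. They were chosen by symbol, each matched exactly 1 entry, and they make up 9 of the 30560 genes in the deposited gene list. Nuclear RNA was measured in ganglia of naive rats of the Long Evans strain, 8 weeks old, 18 labelled male and 18 labelled female. Ganglia of 1 side from 6 rats were combined in each pool, and 3 pools were made for each labelled sex and side, 12 in all, named ML, MR, FL and FR for male or female and left or right. With 3 pools of 6 rats for each side, left and right pools of a labelled sex would draw on the same 18 rats. They would then not be independent animals. Y-linked counts of ML1 and FL1 go against their sex labels (below), so that count of rats holds for the labels only. The deposited samples are 8 sublibraries that each hold nuclei of every pool, so the pools were used as replicates, and p-values measure the spread between pools.

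Voltage-gated calcium channels open when the membrane depolarises and turn an electrical signal into calcium entry. The pore-forming subunit sets the current type: P/Q-type for Cacna1a, N-type for Cacna1b, L-type for Cacna1c and Cacna1d, R-type for Cacna1e and low-threshold T-type for Cacna1h. P/Q- and N-type channels trigger transmitter release at nerve terminals, and in visceral afferents this is how the vagus nerve signals to the brainstem. Subunits of the Cacna2d family carry the channels to the surface and terminals, and Cacna2d1 and Cacna2d2 bind gabapentin. The vagal ganglia hold placode-derived nodose neurons and crest-derived jugular neurons, which differ in targets and markers.

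The 36726 nuclei kept held 139891338 transcripts counted by unique molecular identifier (UMI), 7128507 to 19442740 per pool. Clusters were made without any of 26 calcium channel subunit genes and named from marker lists. There were 27732 neurons, of which 19788 were nodose-like (list with P2rx2), 2959 jugular-like (list with Prdm12) and 4985 unnamed. Names rest on several markers of a list, and P2rx2 alone did not part nodose-like from unnamed neurons. Other classes were 4598 satellite glia, 2029 myelinating Schwann cells, 843 endothelial and 204 mural cells. The labelled tissue thus held jugular-like neurons, at 2.28% to 25.1% of a pool's neurons. Y-linked genes stood at 2.88 CPM (counts scaled to a common library total) in ML1 and 88.7 CPM in FL1, against the labels of both pools, so sexes are given as labelled. Transcripts of neurons were found in every class: the 14 neuron markers had a median level in satellite glia of 85.97% of that in neurons, in Schwann cells of 40.6%, in endothelial cells of 46.4% and in mural cells of 18.5%. In 825 skeletal muscle nuclei it was 81.3%, and 466 of them came from 1 pool. No subunit level is read from that class. The median in satellite glia was higher still, so their levels are given below beside those of the markers. In all, 1863 barcodes occurred in more than 1 sublibrary.

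The promoters of 3 members are shown because these genes differed in opposite directions between jugular-like and nodose-like neurons below. Cacna1c and Cacna1a differed most of all members and were higher in jugular-like neurons. Cacna2d3 was lower there, and Cacna1h, which was lower by more, had no promoter entry. The bases are the 250 before the RefSeq start in GRCr8, a later build than the mRatBN7.2 named in the submitters' processing notes, and capitals mark GC boxes (GGGCGG on either strand).
Cacna1c, chr4:154051749-154051998, minus strand: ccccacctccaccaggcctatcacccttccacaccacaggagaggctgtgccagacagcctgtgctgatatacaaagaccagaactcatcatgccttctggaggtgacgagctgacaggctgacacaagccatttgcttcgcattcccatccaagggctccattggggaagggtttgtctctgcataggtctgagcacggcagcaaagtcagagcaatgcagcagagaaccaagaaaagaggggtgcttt
Cacna1a, chr19:40650469-40650718, minus strand: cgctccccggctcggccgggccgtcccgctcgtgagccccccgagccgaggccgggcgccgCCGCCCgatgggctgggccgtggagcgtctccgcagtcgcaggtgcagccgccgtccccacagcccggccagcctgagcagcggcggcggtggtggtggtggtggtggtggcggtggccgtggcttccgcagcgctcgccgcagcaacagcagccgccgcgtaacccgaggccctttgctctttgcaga
Cacna2d3, chr16:4918900-4919149, minus strand: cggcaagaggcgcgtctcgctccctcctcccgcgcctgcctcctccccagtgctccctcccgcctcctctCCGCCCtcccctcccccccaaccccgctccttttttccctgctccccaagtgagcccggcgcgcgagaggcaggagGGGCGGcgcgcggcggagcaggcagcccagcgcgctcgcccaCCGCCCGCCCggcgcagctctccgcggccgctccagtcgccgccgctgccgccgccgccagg
The 250 bases were 54.4% G or C in Cacna1c, 76.8% in Cacna1a and 78.8% in Cacna2d3, against a median of 51.2% over 33469 promoters in the table. Cacna1c held no GC box, Cacna1a held 1 and Cacna2d3 held 4, copies that overlap being counted each. Of all promoters 30.5% held at least 1. Among the 8 members with an entry, Cacna1c and Cacna1e held none, and Cacna1b, Cacna1d, Cacna2d1 and Cacna2d2 held at least 1. A TATA box (TATAAA) was in no member's 250 bases and in 12.9% of all promoters. The RUNX core TGTGGT was found in Cacna1c alone among these members and in 14.5% of all promoters. These matches describe letters and were not linked to any measurement.

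All 9 subunits were higher in neurons than in satellite glia, the cells that wrap the neuron bodies, and than in myelinating Schwann cells, and 8 of 9 were higher than in endothelial cells. In satellite glia the fitted log2 difference ran from 0.90 (standard error 0.05) for Cacna1d to 1.46 (0.04) for Cacna1c, and the largest adjusted p was 3.0e-17 (edgeR quasi-likelihood test with pool as a block, Benjamini-Hochberg over all genes). Of 12500 genes tested in that comparison 33.8% were called higher in neurons and 38.5% lower. Against Schwann cells the differences ran from 1.64 (standard error 0.07) for Cacna1c to 2.69 (0.08) for Cacna1b, where 37.2% of 11950 genes were called higher in neurons and 30% lower. Against endothelial cells those called ran from 1.23 (standard error 0.08) for Cacna2d1 to 2.37 (0.09) for Cacna1b, where 32.8% of 11804 genes were called higher in neurons and 23.6% lower. In satellite glia and Schwann cells no member overlapped with neurons over the 12 pools. The share of all tested genes without overlap was not counted, so this describes levels only. Library sizes without TMM factors moved the median log2 difference of all genes from -0.04 to -0.17 (satellite glia), from 0.08 to -0.12 (Schwann cells) and from 0.12 to -0.18 (endothelial cells). It turned the calls over all genes from 4231 higher and 4808 lower to 3233 and 6071 in satellite glia, from 4445 and 3590 to 3592 and 4531 in Schwann cells, and from 3871 and 2787 to 2609 and 4145 in endothelial cells.

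The members' levels in satellite glia lay between 40.05% (Cacna1c) and 59.4% (Cacna1d) of those in neurons, below the 85.97% median of the neuron markers there. Of the 14 markers, Cacna1d was above 4 there, Cacna2d2 above 3, Cacna1h above 2 and the others above 1 or none. In Schwann cells they lay between 17.8% (Cacna1b) and 37.00% (Cacna1c), also below the marker median. Cacna1c was above 6 of the 14 markers there, Cacna1d above 5, Cacna1a above 4, Cacna1b above none and the others above 1. In endothelial cells, where that median was 46.4%, Cacna1a at 51.2% and Cacna2d1 at 53.4% were each above 8 of the 14 markers, Cacna1d at 44.97% and Cacna1h at 39.7% above 6, and Cacna1b, Cacna1e, Cacna2d2 and Cacna2d3, at 23.9% to 26.1%, above none. In mural cells Cacna1a at 22.7% was above 10 of them, Cacna2d2 at 18.1% above 7 and Cacna2d3 at 13.2% above 3. Free neuronal RNA in these nuclei was not removed, and its part in those levels was not tested.

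Cacna1c went another way in the cells of vessels. In mural cells, the pericytes and smooth muscle cells around vessels, the pools ran from 1986 to 3333 CPM with a median of 2780.3, against 699 to 1079 CPM (median 792) in all neurons. Every mural value was above every neuron value. In endothelial cells Cacna1c ran from 781 to 1523 CPM (median 1001), higher than in nodose-like neurons of the same pool in 12 of 12 pools although the ranges overlapped, and it was not called against all neurons (log2 difference -0.05, standard error 0.07, adjusted p = 0.56 in edgeR). Without TMM factors that difference was -0.38 and called, adjusted p = 1.5e-06. Its mean level was 335% (mural) and 131% (endothelial) of that in neurons, above each of the 14 neuron markers in those classes. Cacna1d at 108%, Cacna1h at 100.3% and Cacna2d1 at 70.7% of the neuron level in mural cells were also above all 14 markers there, whereas Cacna1b stood at 7.61% and Cacna1e at 10.4%, below all 14. Cacnb2, a cytoplasmic beta subunit known to partner the L-type channel of vessels and heart, ran from 1105 to 1986 CPM in mural cells, from 294 to 627 CPM in endothelial cells and from 74.4 to 131 CPM in neurons, and was called lower in neurons than in endothelial cells (adjusted p = 5.7e-52 in edgeR). Mural cells numbered 9 to 42 per pool and were not tested.

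**Figure D1:**
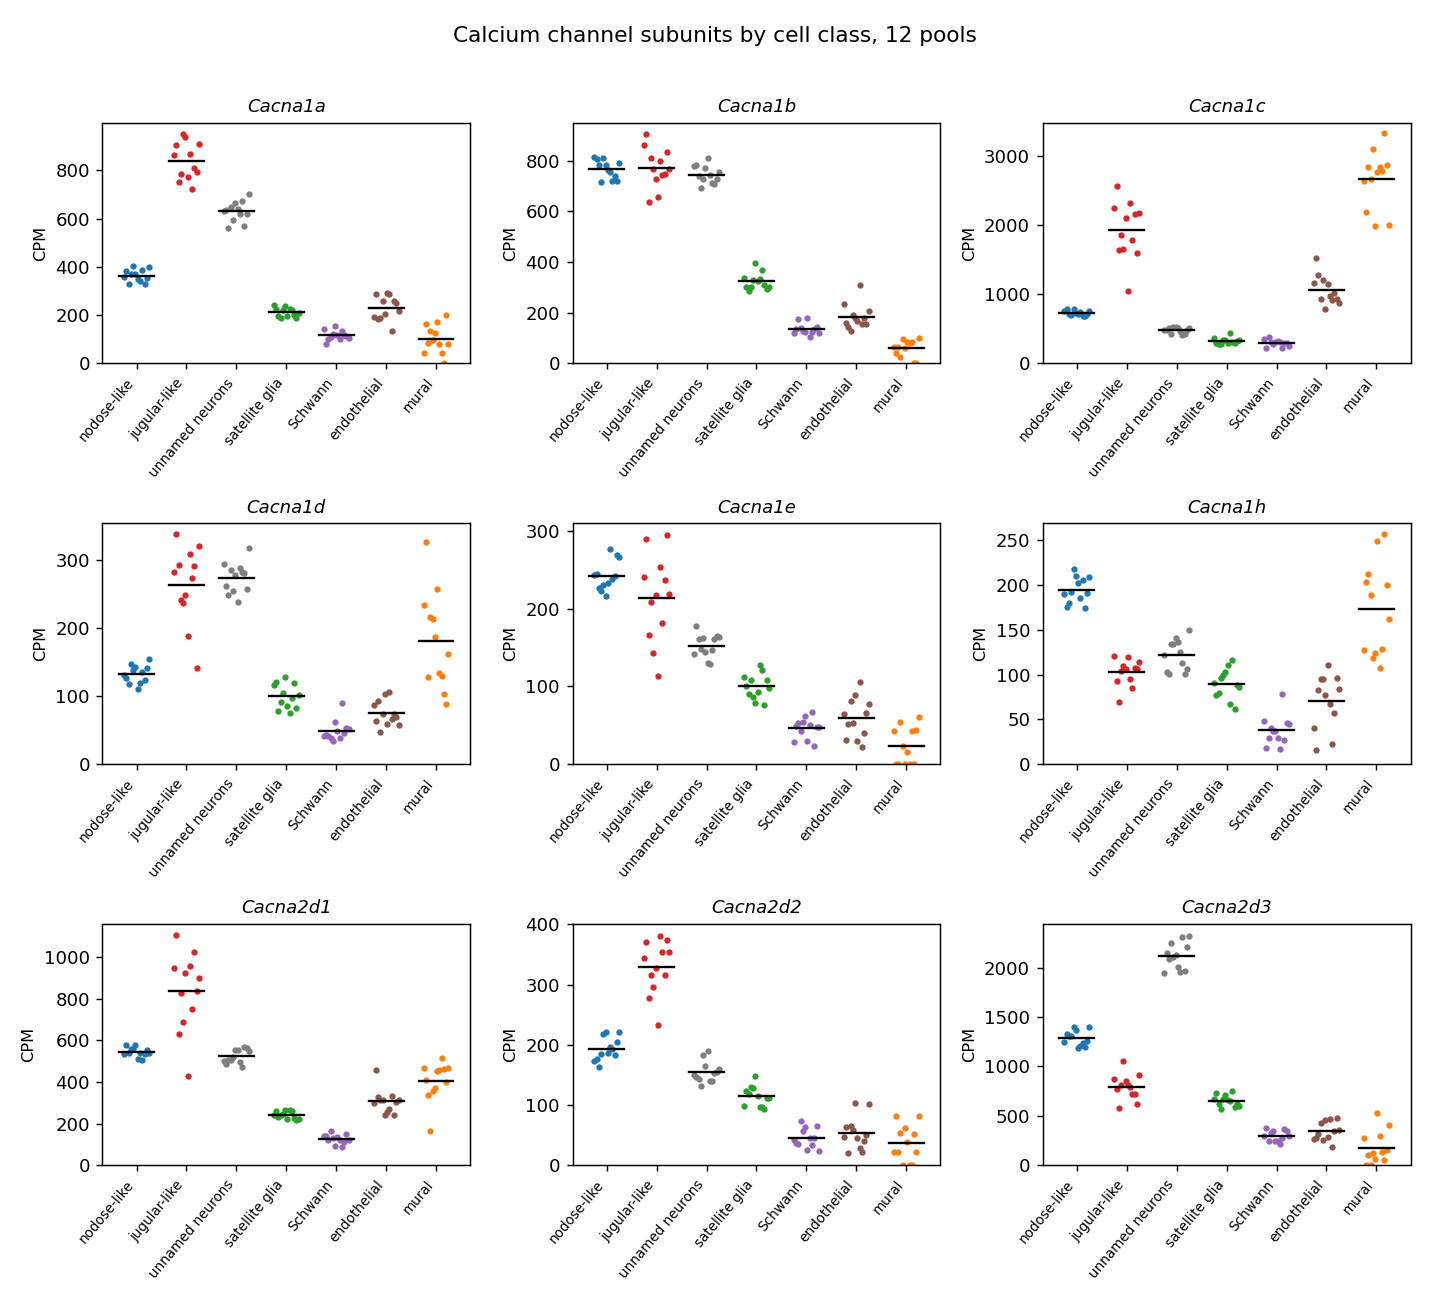
Levels of the 9 subunit genes in CPM (vertical axis, from 0, a scale of its own in each panel) by cell class; points are the 12 pools and bars their means. Cacna1c is highest in mural cells (1986 to 3333 CPM), while Cacna1b and Cacna1e are highest in neurons.

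Between jugular-like and nodose-like neurons, 7 of the 9 subunits differed in edgeR with pool as a block. Cacna1a, Cacna1c, Cacna1d, Cacna2d1 and Cacna2d2 were higher in jugular-like neurons, where 18.9% of 11887 genes were called higher, and Cacna1h and Cacna2d3 were lower, where 21.4% were called lower. Cacna1b and Cacna1e were not called. The members' median log2 difference was 0.64, beside -0.03 over all genes. With the calcium channel genes kept in the clustering, the measured genes helped to draw the classes. That setting gave 9 called, 5 higher and 4 lower. The make-up of the classes also differed there. Jugular-like neurons then held a Lypd1-led subcluster of 357 nuclei, with a median of 8685 UMIs and the lowest Prdm12 level among jugular-like subclusters. The Edn3-led subcluster, otherwise nodose-like, was unnamed there. Values given below for that setting thus compare classes of other make-up, and its part in the added calls was not tested.

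Cacna1a, the P/Q-type pore of release sites, ran from 327 to 405 CPM (median 362) in nodose-like and from 722 to 949.8 CPM (median 836) in jugular-like neurons. No pool of the lower class reached the higher one. The log2 difference was 1.24 (standard error 0.05, adjusted p = 9.9e-22, edgeR). Over the 30 neuron subclusters, named by number and leading gene, its highest means were in n12 (Tafa1), at 1106 ± 121 CPM (SD, n = 11), and n27 (Trpm8, the cold receptor), at 1040.4 ± 235 (SD, n = 9), with n counting pools, and the highest 4 were all jugular-like. Its lowest mean was in the nodose-like n16 (Stom), at 132 ± 28.9 (SD, n = 12). The jugular-like n26 (Spp1, Kcna1, Nefh) had 311 ± 104 CPM (SD, n = 11), below the other jugular-like ones; its Prdm12 level was 34.9 CPM, against 81.4 to 143 CPM in those.

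Cacna1b, the N-type pore, ran from 717 to 814 CPM in nodose-like and from 639 to 905 CPM in jugular-like neurons, with medians of 772 and 768. Each nodose-like pool lay within the jugular-like range, and the log2 difference was 0.04 (standard error 0.05, adjusted p = 0.55, edgeR). With the calcium channel genes kept in the clustering it was -0.23, of the opposite sign and called, adjusted p = 0.0013 in edgeR. By its range over subclusters it was the most even pore, from 999 ± 55.7 CPM (SD, n = 12) in n1 (Tafa4) to 353 ± 139.6 (SD, n = 11) in n26. Of the 29 steps between neighbours in that order 28 were within the larger SD. Cacna1h, of wider range, had 28 as well, so this count does not set Cacna1b apart.

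Cacna1c, an L-type pore, ran from 684 to 784 CPM (median 727) in nodose-like and from 1044 to 2574 CPM (median 1981) in jugular-like neurons. The classes did not overlap. The log2 difference was 1.41 (standard error 0.07, adjusted p = 2.2e-18, edgeR). The spread within jugular-like neurons was wide, and the pools differed in their make-up: in FL1, the lowest at 1044 CPM, n9 (Tac1, Calca) gave 22.1% and n26 gave 31.6% of jugular-like nuclei, whereas in ML2, the highest at 2574 CPM, they gave 49.8% and 4.12%. The part of make-up in this spread was not tested. Over subclusters Cacna1c ran from 4542 ± 922 CPM (SD, n = 2) in n29 (Il31ra), 3566 ± 306 (SD, n = 9) in n27 and 2923 ± 338 (SD, n = 12) in n9, down to 123 ± 40.6 (SD, n = 12) in the unnamed n21 (Gabrg3). The highest 4 subclusters were all jugular-like, and n26 at 196 ± 108 (SD, n = 11) and n28 (Poteg) at 536 ± 85.6 (SD, n = 7) were jugular-like subclusters below the median of 591 CPM. The n29 value rests on the 2 pools with at least 10 such nuclei.

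Cacna1d, the other L-type pore, which opens at more negative voltages, ran from 109.8 to 155 CPM (median 133) in nodose-like and from 142 to 338 CPM (median 277) in jugular-like neurons. The ranges overlapped at the lowest jugular-like pool, but jugular-like was higher in 12 of 12 pools. The log2 difference was 1.03 (standard error 0.07, adjusted p = 2.1e-14, edgeR). Its highest subcluster was nonetheless nodose-like, n14 (Nxph1, Glp1r), at 717 ± 123 CPM (SD, n = 12), above the next, the unnamed n25 (Dcc), at 565 ± 104 (SD, n = 12), by more than the SD. The lowest was n16 at 46.02 ± 21.4 (SD, n = 12).

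Cacna1e, the R-type pore, ran from 217 to 276 CPM (median 241) in nodose-like and from 113 to 295 CPM (median 219) in jugular-like neurons. The classes overlapped, and the log2 difference of -0.16 (standard error 0.07) was not called (adjusted p = 0.08, edgeR). That call turned with the setting: edgeR gave -0.56 with the calcium channel genes kept in the clustering (adjusted p = 2.2e-06), -0.20 without a low-count filter (0.004), -0.19 without TMM (0.031), -0.18 without ML2 (0.049) and -0.19 without MR3 (0.043). Among subclusters it was highest in n0 (Fhip1a), the largest nodose-like subcluster, at 635 ± 55.96 CPM (SD, n = 12), and beyond the SD above n14 at 453 ± 53.9 (SD, n = 12). It was 20.9 ± 24.01 (SD, n = 7) in n28 and 30.1 ± 24.6 (SD, n = 8) in n23 (Htr4), both jugular-like, while the jugular-like n9 had 414 ± 75.3 (SD, n = 12).

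Cacna1h, a T-type pore that opens near rest and is known from low-threshold mechanoreceptors and nociceptors, ran from 174 to 218 CPM (median 191) in nodose-like and from 69.4 to 120.3 CPM (median 106) in jugular-like neurons. No pools overlapped, and the log2 difference was -0.86 (standard error 0.06, adjusted p = 1.3e-14, edgeR). The order was not the same within the classes: n5 (Xylt1, Cckar, the cholecystokinin receptor) had 405 ± 49.7 CPM (SD, n = 12), and the jugular-like n28 had 389.6 ± 97.6 (SD, n = 7), within the spread of each other. The jugular-like n28 was also highest for Cacna1i, another T-type pore, at 284 ± 81.3 CPM (SD, n = 7), beyond the SD above n21 at 57.9 ± 17.6 (SD, n = 12). The jugular-like n26 had 43.7 ± 22.3 CPM (SD, n = 11) of Cacna1h.

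Of the auxiliary subunits, Cacna2d1 ran from 507 to 580 CPM (median 541) in nodose-like and from 429.5 to 1109 CPM (median 869.8) in jugular-like neurons. Jugular-like was higher in 11 of 12 pools, all but FL1. The log2 difference was 0.64 (standard error 0.07, adjusted p = 2.2e-09, edgeR). It was highest in n9, the Tac1 and Calca subcluster, at 1265 ± 196 CPM (SD, n = 12), and lowest in n26 at 234 ± 155 (SD, n = 11), both jugular-like.

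Cacna2d2 ran from 164 to 222 CPM (median 189) in nodose-like and from 233 to 381 CPM (median 336) in jugular-like neurons, without overlap. The log2 difference was 0.80 (standard error 0.06, adjusted p = 6.5e-14, edgeR). Its highest mean was in the nodose-like n5 at 505 ± 56.8 CPM (SD, n = 12), where Cacna1h was also highest, followed by 5 jugular-like subclusters. The first of these, n23 at 464 ± 81.5 CPM (SD, n = 8), did not differ from n5 beyond the spread.

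Cacna2d3 ran the other way: from 1191 to 1402 CPM (median 1281) in nodose-like and from 583 to 1057 CPM (median 804) in jugular-like neurons, without overlap. The log2 difference was -0.66 (standard error 0.06, adjusted p = 3.9e-12, edgeR). The unnamed neurons lay above both, from 1952 to 2326 CPM (median 2123). Over subclusters its highest means were in the unnamed n18 at 4581 ± 313 CPM (SD, n = 12) and in n14 at 4314 ± 413 (SD, n = 12). The lowest were n16 at 371 ± 81.03 (SD, n = 12) and n9 at 420.0 ± 118 (SD, n = 12), the latter being where Cacna2d1 was highest.

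**Figure D2:**
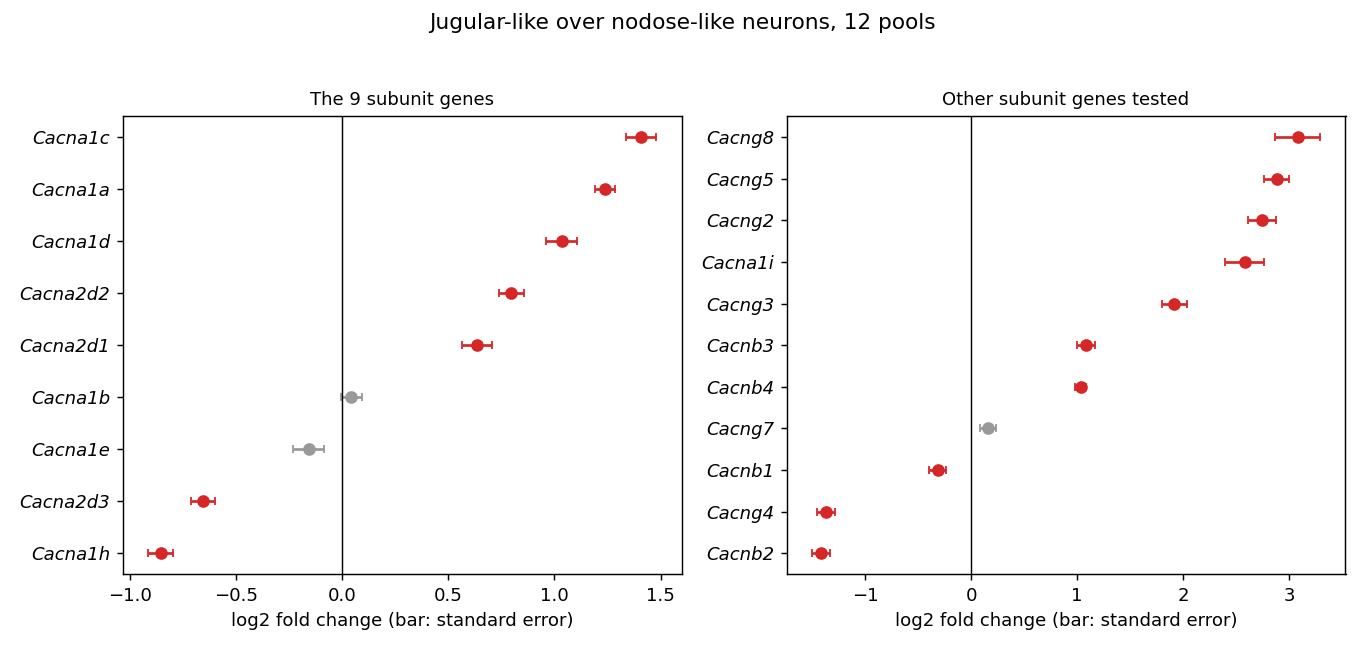
Log2 fold change of jugular-like over nodose-like neurons (horizontal axis, bars are standard errors, 12 pools) for the 9 members (left) and other subunit genes tested (right); red points passed an adjusted p of 0.05 and grey ones did not. Cacna1c at 1.41 and Cacna1a at 1.24 lead the members, and Cacna1h at -0.86 and Cacna2d3 at -0.66 are lower.

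Side by side over the 30 subclusters, log2 levels of Cacna1c and Cacna2d1 had the highest Pearson r of any pair of members (0.714), followed by Cacna1d with Cacna2d3 (0.712). Cacna2d2 and Cacna2d3 had the lowest (-0.43). These are descriptions over subclusters that share libraries, and subclusters differ in depth: the members' r with log2 median UMIs per nucleus ran from -0.34 (Cacna2d1) to -0.01 (Cacna2d3). Among the genes whose pattern was most like a member's, out of 9585 expressed genes, were Vwa5b2 (0.86) and Rptor (0.85) for Cacna1a, Otud7a (0.89) and Rnf14 (0.88) for Cacna1b, Dgkh (0.82) and Tmem159 (0.80) for Cacna1c, Zfp536 (0.80) for Cacna1e, Hpcal1 (0.74) and Ca8 (0.73) for Cacna1h, Lars2 (0.76) for Cacna2d1, Fbxl2 (0.81) and Fmnl1 (0.79) for Cacna2d2, and Ttc21b (0.87) and Cep83 (0.83) for Cacna2d3. For Cacna1d they were ENSRNOG00000070508 (0.89) and ENSRNOG00000065324 (0.88), which the file does not pair with symbols.

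**Figure D3:**
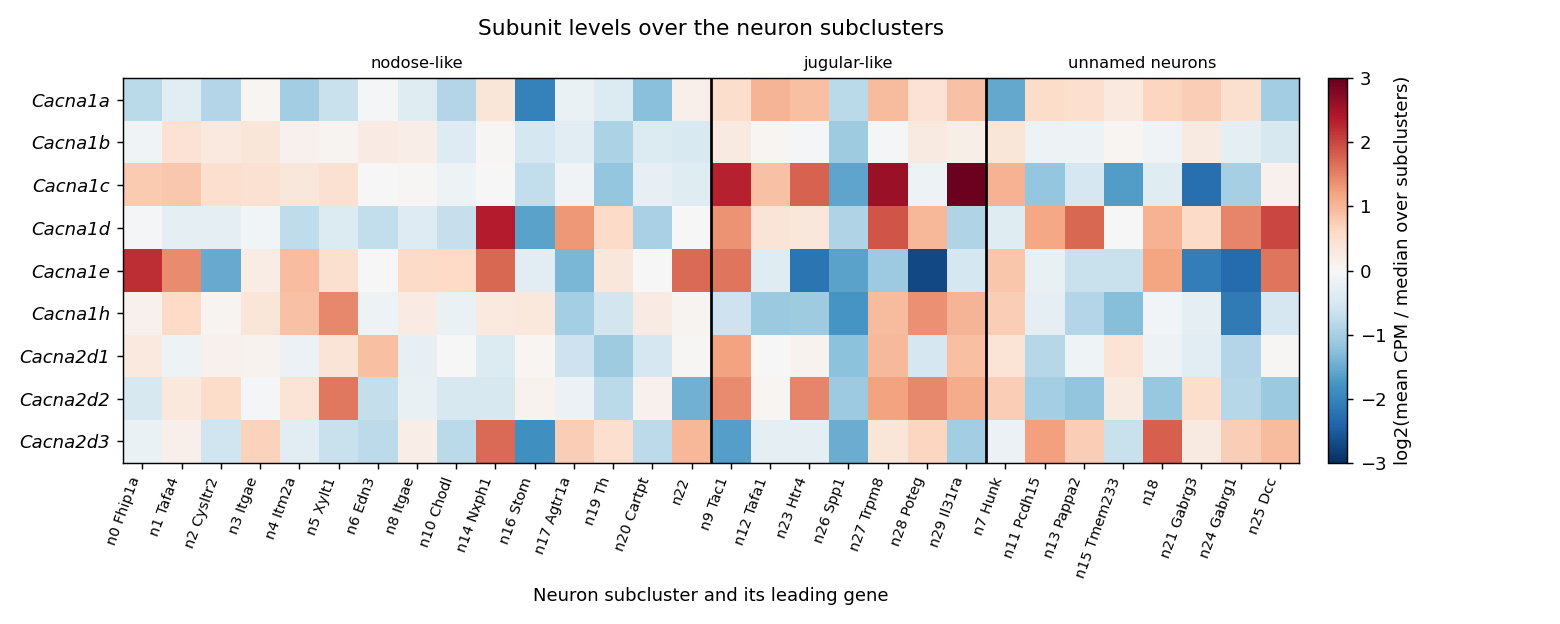
Mean level of each subunit (rows) in the 30 neuron subclusters (columns, with number and leading gene), as log2 of the mean CPM over the member's median across subclusters; red is above and blue below. The jugular-like n9, n27 and n29 are high for Cacna1c (2923, 3566 and 4542 CPM), and the unnamed n18 is high for Cacna2d3 (4581 CPM).

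Of the 17 other subunit genes, 11 could be tested between jugular-like and nodose-like neurons: 7 were higher in jugular-like, 3 lower and 1 not called (edgeR). The beta subunits, which hold the pore at the membrane, moved in opposite directions. Cacnb4 (log2 difference 1.03, standard error 0.05) and Cacnb3 (1.08, 0.08) were higher, and Cacnb2 (-1.42, 0.09) and Cacnb1 (-0.32, 0.08) lower. Cacnb2 was 75.7 to 146 CPM in nodose-like and 13.9 to 53.8 CPM in jugular-like neurons, without overlap. Among genes named as gamma subunits, of which several are known chiefly as partners of AMPA-type glutamate receptors, Cacng8 (3.08), Cacng5 (2.88), Cacng2 (2.74) and Cacng3 (1.92) were higher and Cacng4 (-1.37) lower, and Cacng7 was not called. The T-type Cacna1i was higher at 2.58 (0.18).

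In the list of channel regulators the 3 genes tested were led by Stac (log2 difference 2.52, standard error 0.06), an adaptor of L-type channels, which was higher in jugular-like neurons with Cabp1 (0.30, 0.06), and Cachd1 (-0.81, 0.10), a relative of the Cacna2d family, was lower. Of 15 release genes 7 were higher, 5 lower and 3 not called; among those that changed most were Rims1 (1.66, 0.05), which tethers calcium channels at release sites, and Cplx2 (0.85, 0.08) upward and Erc2 (-0.78, 0.06), Vamp2 (-0.77, 0.06) and Stx1a (-0.77, 0.09) downward. Of 16 genes for calcium-activated channels and calcium stores 8 were higher, 6 lower and 2 not called, led by the calcium-activated chloride channel Ano1 (2.41, 0.21), the calcium pump Atp2b2 (2.15, 0.10) and the release channel Ryr2 (1.93, 0.05) upward and the store channel Itpr1 (-2.46, 0.06), the potassium channel Kcnn3 (-1.07, 0.10) and the exchanger Slc8a3 (-0.99, 0.08) downward. The medians of these lists were 0.30, 0.04 and 0.24, beside -0.03 over all genes.

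No member was called by side, by labelled sex or by their interaction in neurons or by side or labelled sex in satellite glia. In neurons edgeR called 0.147% of 14300 genes by side, 0.147% by labelled sex and 0% by interaction, and in satellite glia 0% of 10709 by side and 0% by labelled sex. At an unadjusted p under 0.05, 0 members passed by side, 0 by labelled sex and 2 by interaction in neurons, and 0 by side and 1 by labelled sex in satellite glia. DESeq2 called 0 members in each of these. Where edgeR called 0 genes of all, 710 passed an unadjusted p under 0.05 by interaction in neurons, 499 by side and 742 by labelled sex in satellite glia, and DESeq2 called 0, 0 and 2. In neurons 899 of 14300 genes passed that threshold by side and 2406 by labelled sex in edgeR.

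Because jugular-like neurons took 2.28% to 25.1% of a pool's neurons, the comparison was repeated in nodose-like neurons, a choice made after the data were seen. Over all neurons Cacna1c spread from 699 to 1079 CPM, the highest in ML1, where 25.1% of neurons were jugular-like, whereas in nodose-like neurons its range was 684 to 784 CPM. In nodose-like neurons edgeR called 0.811% of 13695 genes by side, and 0 members, and 0.256% by labelled sex, also 0 members. At an unadjusted p under 0.05 there were 2 members by side and 3 by labelled sex, and DESeq2 called 0. The counts over all genes at that threshold are not given here, and these members are not read as a result.

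The members nearest to a call by side in nodose-like neurons were Cacna1d and Cacna2d2. Cacna1d was 109.8 to 135 CPM (median 123) in the 6 left pools and 124 to 155 CPM (median 142) in the 6 right pools, overlapping, with a right-over-left log2 difference of 0.19 (standard error 0.05, adjusted p = 0.16, edgeR). Cacna2d2 was 164 to 196 CPM (median 181) in the left and 183 to 222 CPM (median 211) in the right pools, with a difference of 0.18 (standard error 0.06, adjusted p = 0.22, edgeR). Without a low-count filter Cacna2d2 was called (0.17, adjusted p = 0.049 in edgeR). Of other subunits Cacnb2 (-0.45, standard error 0.07, adjusted p = 0.0018) and Cacng3 (-0.44, standard error 0.10, adjusted p = 0.039) were lower on the right in edgeR.

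By labelled sex, Cacna1e was 217 to 244 CPM (median 228) in male-labelled and 234 to 276 CPM (median 255) in female-labelled pools of nodose-like neurons, with a female-over-male log2 difference of 0.13 (standard error 0.05, adjusted p = 0.2, edgeR). Cacna2d3 had -0.10 (standard error 0.04, adjusted p = 0.24, edgeR) and Cacna2d1 -0.08 (standard error 0.04, adjusted p = 0.31, edgeR). The pools of both labels overlapped for each of these 3 members. Over all neurons the interaction terms with an unadjusted p under 0.05 were 0.23 (0.09) for Cacna1e and -0.22 (0.10) for Cacna1h, both with an adjusted p of 0.97 in edgeR. Without ML1 and FL1 edgeR called 0 members by side, labelled sex or interaction.

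**Figure D4:**
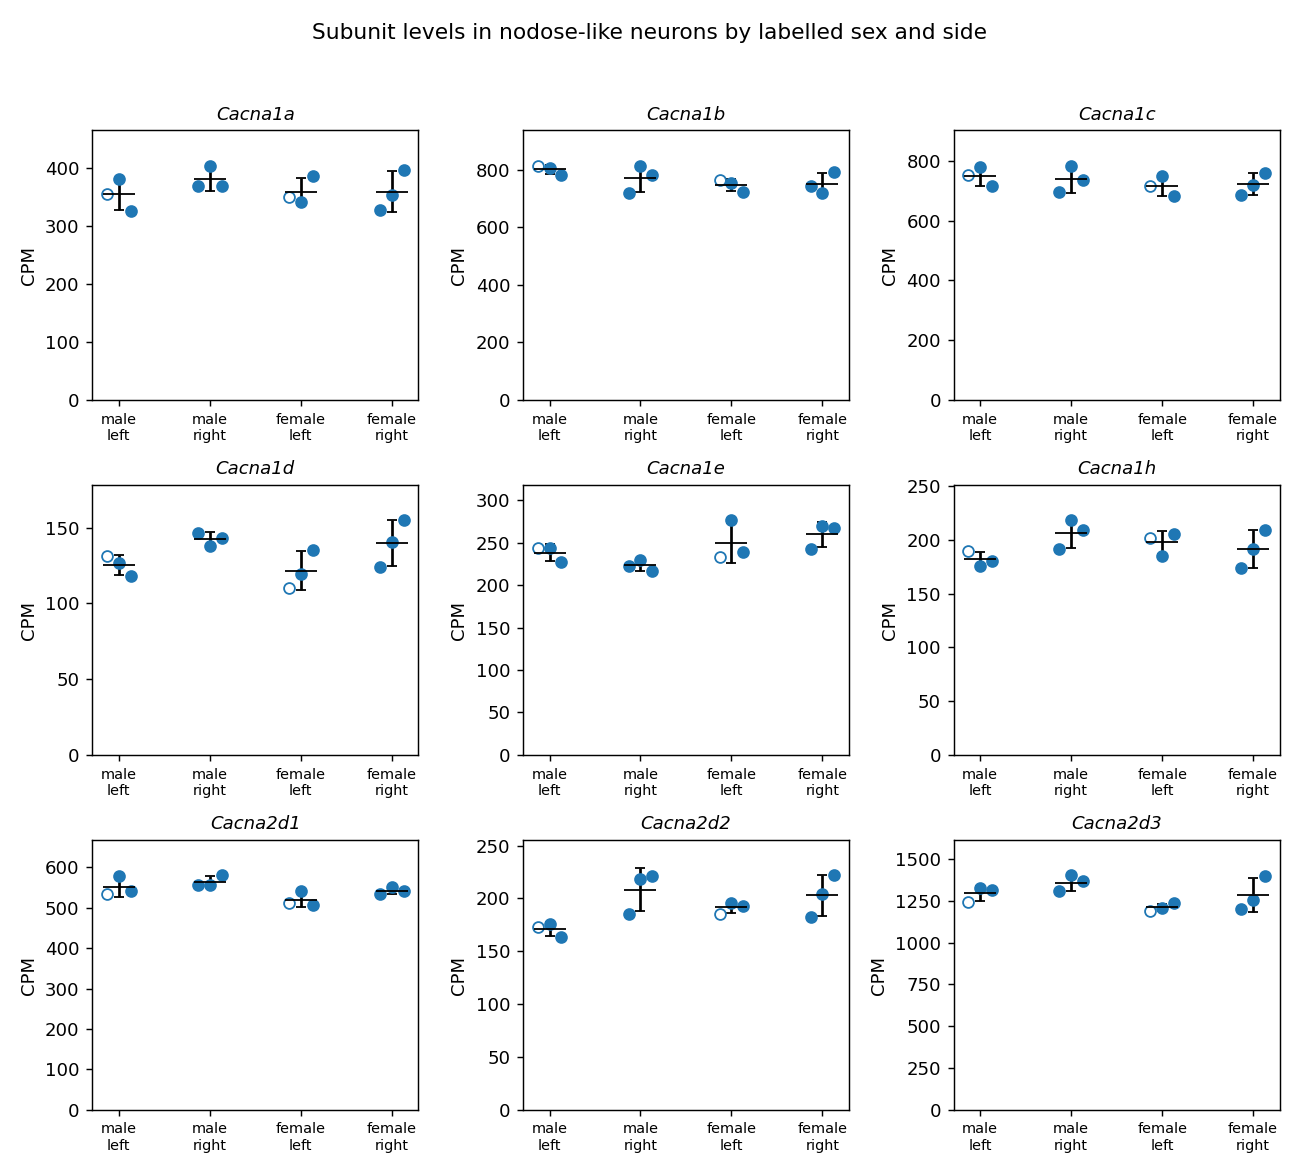
Levels of the 9 subunits in nodose-like neurons in CPM (vertical axis, from 0) by labelled sex and side; points are pools (open for ML1 and FL1, whose Y-linked counts go against their labels), with the mean and SD of 3 pools. Group ranges overlap by side for Cacna1d (109.8 to 135 left, 124 to 155 right) and Cacna2d2 (164 to 196 left, 183 to 222 right).

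At a fixed depth of 1000 UMIs per nucleus, Cacna1a was seen in 30.6% of 19016 nodose-like and 55.7% of 2822 jugular-like nuclei, and Cacna1c in 51.1% and 68.5%. Without thinning the shares were 63.5% and 81.9% for Cacna1a but 81.1% and 80.5% for Cacna1c, whose order is thus not that of the level when depth is left as it is. Cacna1h was seen in 16.4% and 10.4%, and Cacna2d3 in 64.9% and 46.95% at 1000 UMIs. In Schwann cells, with a median of 1397 UMIs against 3087 in nodose-like and 2683 in jugular-like nuclei, the thinned shares were 11.01% for Cacna1a, 23.3% for Cacna1c, 3.98% for Cacna1h and 20.96% for Cacna2d3. Shallower nuclei were left out, so that 19016 of 19788 nodose-like and 2822 of 2959 jugular-like nuclei entered. At least 1 UMI of a member was present in 99.5% of nodose-like and 99.02% of jugular-like nuclei. Over the 8 sublibraries, which measure technical spread, the level of each member in neurons varied by 1.75% (Cacna2d2) to 4.23% (Cacna1d), and over the 12 pools by 4.54% (Cacna1b) to 15.8% (Cacna1c).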

How the data were processed

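Nuclei were fixed and barcoded with Evercode version 2 kits and sequenced on a NextSeq 2000, per the labels' protocols. The deposited values are raw UMI counts per nucleus and gene, not normalized by the authors. The build mRatBN7.2 and the tools R 4.3.2 and Seurat 4.1.3 are named in the submitters' processing notes. The sources used here give no aligner, strand setting or barcode filter. The 9 members and all gene and marker lists were chosen with earlier results of these data known.

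Filters kept nuclei holding 300 or more genes and 5% or less of UMIs from mitochondria. Scrublet called 14 doublets, which were left out, too few for the caller to have worked, so doublets remain. Clustering used scanpy 1.11.5 and leidenalg 0.10.2 (3000 variable genes, 30 components, 20 neighbours, resolution 1), then Pearson residuals of 2000 genes. Both steps left out the 26 subunit genes, except in the alternative that kept them in. After the data were seen the arithmetic of the clustering was made exact, since rounding on another processor had moved nuclei between classes, and a second seed was added as an alternative. Of 19 marker lists, those for cells other than vagal sensory neurons named a cluster by 2 conditions. At least 3 markers, each seen in at least 10% of its nuclei, were at least 2-fold higher, and 1 marker was among its 10 leading genes. Jugular-like subclusters had at least 3 jugular markers at least 2-fold above non-neuronal clusters, and fewer nodose markers. Nodose-like subclusters had at least 3 nodose markers at least 2-fold above jugular-like ones, and fewer jugular markers. A neuron subcluster that met the sympathetic list stayed unnamed where it held at most 1 more sympathetic than nodose marker. The unnamed n25 had 4 nodose markers by this measure. Leading genes did not enter the jugular-like and nodose-like names, and all names mean likeness. Counts were summed per pool and class and tested with edgeR 4.0.16 under R 4.3.3 (TMM, filterByExpr, quasi-likelihood), side and labelled sex as additive terms or pool as a block, and checked on simulated data; DESeq2 1.42.0 was an alternative. Adjusted p under 0.05 is called. Levels in text are CPM of summed UMIs without TMM factors, and subcluster means use pools with at least 10 nuclei. An order's neighbours are said to differ beyond their spread where the means differ by at least the larger SD. Counting error is the only error of single totals. In each comparison the genes named from the release and calcium-handling lists are the called ones of largest change, at most 3 per direction. Some genes that these rules would name are not reported here. Likeness is Pearson r of log2(CPM + 5) among genes of at least 20 CPM in 1 subcluster. Levels of different genes were not compared, as they were not scaled by length. Library sizes without TMM, the nodose-like contrasts and, for contrasts between classes, removal of high doublet scores were added after the data were seen.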

Additional observations from a re-analysis of the deposited data

Results flagged for a closer look

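Of 108 groups of 6 pools tested for 1 stray pool in a member's level, 6 had a pool far from the other 5, where chance gives about 1 in 20. In neurons Cacna2d1 was 619 CPM in MR3 (other right pools 562 to 579). In nodose-like neurons Cacna1b was 717 CPM in MR1 (other male-labelled pools 782 to 814), Cacna1e was 276 CPM in FL2 (other left pools 227 to 244) and Cacna2d3 was 1399 CPM in FR3 (other female-labelled pools 1191 to 1255). In satellite glia Cacna1b was 397 CPM in MR3 (other right pools 293 to 331) and Cacna1c was 444 CPM in FL2 (other female-labelled pools 296 to 341). The summed Y-linked genes were 2.88 CPM in ML1, where the remaining pools labelled male had 84.5 to 91.3, and 88.7 CPM in FL1, where the remaining pools labelled female had 2.73 to 3.95.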

How the results depend on the processing

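The number of members called was the same, within 1.5 times, in 206 of 208 alternatives. The exceptions were side in nodose-like neurons without a low-count filter, where 1 member (Cacna2d2) was called against 0, and with the replicate block, where 1 (Cacna1d, adjusted p = 0.047) was called; the cause was not tested. Leaving out each pool in turn gave 7 to 8 members called between jugular-like and nodose-like neurons, with Cacna1e added without ML2 or MR3. Another seed of the clustering, added after the data were seen, gave 5 members higher and 2 lower there too. Between classes, 7 of 684 log2 fold changes of members under alternatives had the opposite sign: Cacna1b between jugular-like and nodose-like neurons, at -0.23 and called with the calcium channel genes kept in the clustering, and 6 that were not called in either setting. There 7 became called, namely that one, Cacna1c against endothelial cells without TMM (-0.38) and 5 of Cacna1e between jugular-like and nodose-like neurons (-0.56 to -0.18), and 0 calls were lost. By side, labelled sex or interaction, 66 of 1188 had the opposite sign, none of them called in either setting, and 2 became called, the Cacna2d2 and Cacna1d differences by side above. Means of per-nucleus CPM lay at 0.818 to 1.22 times the levels given, and 10 of 45 moved by more than the SD over pools. Shares of nuclei follow depth: 81 of 90 moved with thinning to 2000 UMIs or none. Same-numbered left and right pools did not deviate together (r from -0.10 to 0.14), and 1 of 6 pairs correlated best with its own number. Over all genes the number called moved more. By side in neurons 21 genes were called, with 4 under the replicate block, 72 in DESeq2, 60 unfiltered, 3 without ML1 and FL1, and 3 to 24 without 1 pool. By labelled sex in neurons these were 21, 70, 292, 429, 47 and 0 to 302, with 0 without TMM and 34 with the channel genes kept. By side in nodose-like neurons they were 111, 153, 164, 306, 40 and 59 to 144, and by labelled sex 35, 173, 240, 688, 181 and 1 to 433, with 6 under the other seed. Mural cells (204) and n29 (57 nuclei) limit the precision of their levels.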
